A study of Drosophila melanogaster and Drosophila melanogaster x Drosophila simulans and Drosophila simulans with 6 samples.

Results

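Expression of the D. melanogaster genome was compared between ovaries of F1 hybrid females and ovaries of their maternal D. melanogaster line. Of the 28229 gene features measured in the series, 13973 belong to the D. melanogaster genome. These were selected by the species prefix of their identifiers, and the 14256 features of the D. simulans genome were set aside. The comparison used 4 of the 6 libraries, 2 from hybrids and 2 from D. melanogaster, while the other 2, from D. simulans, served only to count reads placed in the wrong species.

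The hybrids were daughters of D. melanogaster Hmr2 mothers and fathers of the D. simulans line w501. The D. melanogaster group was the Hmr2 line itself. Hmr2 is a mutant allele of Hmr, a gene of D. melanogaster that makes hybrids with its sibling species inviable or sterile, and both groups therefore carry it. The maternal line also carries inversions of the X chromosome, which the hybrids inherit from their mothers. Adults were taken a few days after eclosion, and the labels give no age. Only a minority of hybrid females have developed ovaries, and the study dissected hybrid ovaries with several ovarioles that held egg chambers, so these libraries describe the best developed of them. The D. melanogaster genome is present in a single dose in hybrids. Its genes took 7582260 and 8159323 estimated counts (reads assigned to a gene, in part fractionally) in the hybrid libraries, which was 45.1% and 47.7% of the totals, against 18862883 and 13254184 in D. melanogaster. In D. simulans libraries, 2.61% and 2.65% of the counts fell on D. melanogaster genes.

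An ovary holds egg chambers of successive stages. In each, germline nurse cells supply the oocyte with RNA and protein, and a layer of somatic follicle cells patterns it, makes ecdysone, secretes a basement membrane and, late in oogenesis, lays down yolk, vitelline membrane and chorion. A muscle sheath wraps the ovarioles, and tracheae, fat body and blood cells adhere to it. Bulk RNA sums all of these, so fewer cells of a type and less RNA per cell cannot be told apart here. The germline genes vas and osk, which define the tissue, had 403 and 384 CPM and 1599 and 1654 CPM in hybrids, against 363 and 419 CPM and 1755 and 1884 CPM in D. melanogaster. CPM are counts scaled to the D. melanogaster counts of a library with TMM factors, so they and all fold changes are relative to the other D. melanogaster genes and a uniform lower dose does not appear as a change. Scaling to the total over both species shifts the median log2 fold change of all genes by -0.92.

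Of 8202 D. melanogaster genes with enough counts, 1086 (13.2%) were called, meaning an edgeR adjusted p-value under 0.05 and a change of at least 2-fold. In hybrids 245 of them (2.99%) were higher and 841 (10.3%) were lower. When the reads of both genomes set the scaling, so that a single dose counts as a change, the split was 79 higher and 3604 lower. Changes of at least 8-fold numbered 21 higher and 115 lower, and changes of at least 16-fold numbered 10 and 53. The genes that rose were mostly scarce in D. melanogaster ovaries, with a median of 11.4 CPM in hybrids and 3.20 CPM in D. melanogaster. Those that fell included abundant ones, with medians of 7.89 CPM in hybrids and 27.3 CPM in D. melanogaster. With tested genes in 4 groups of like size by mean level, 8.09% of the lowest group were higher and 19.0% lower, and shares were 1.71% and 11.2%, 1.07% and 3.76%, and 1.07% and 7.07% in the groups above it. Reads from D. simulans alleles placed on D. melanogaster genes exceeded 5% of the level of 75 higher genes (30.6%) and 45 lower genes (5.35%), against 12.7% of all tested genes. The level is here the higher group mean, that of hybrids for higher genes and that of D. melanogaster for lower genes. These shares are therefore not alike, and misplaced reads can be a larger part of the hybrid counts of lower genes. Both hybrid libraries lay above both D. melanogaster libraries for 36.6% of tested genes and below both for 37.2%. Leaving out a single library gave 173 to 508 higher and 578 to 1174 lower genes, in each case the most without D. melanogaster replicate 2.

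**Figure D1:**
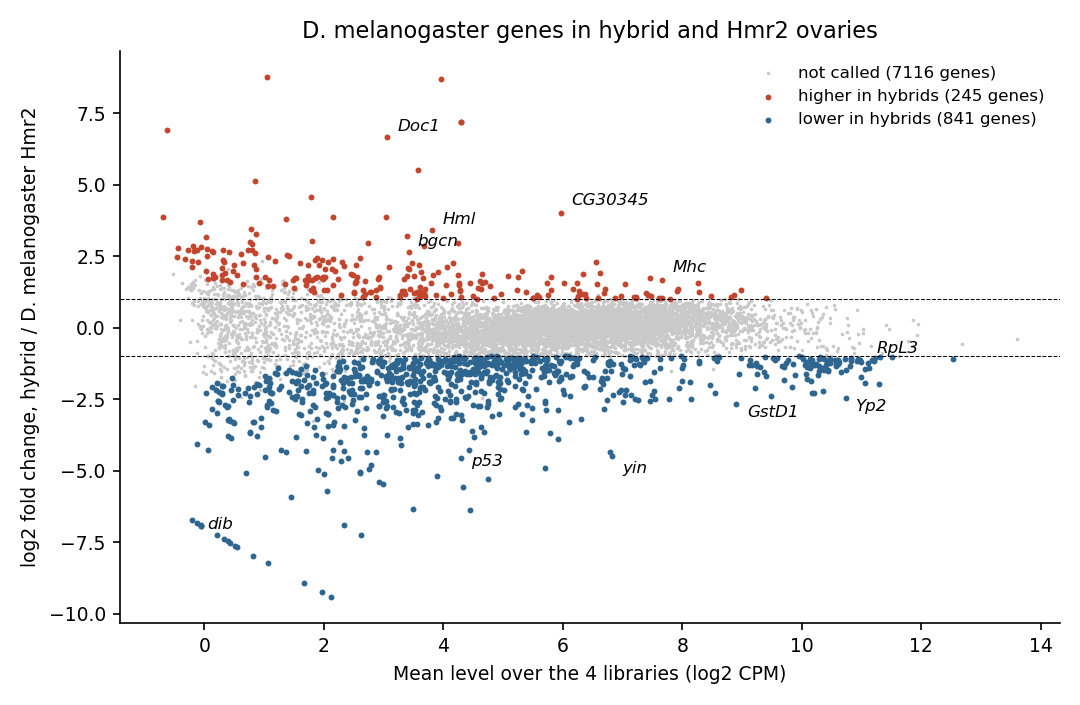
log2 fold change of each of the 8202 tested D. melanogaster genes (hybrid over D. melanogaster Hmr2, vertical) against its mean level over the 4 libraries in log2 CPM (horizontal), with dashed lines at 2-fold. The 841 lower genes reach into the most abundant ones, while most of the 245 higher genes lie at low levels, and the line of points at the lower left holds genes with no count in hybrids, whose plotted fold change is a fitted value.

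Eggshell and yolk genes of the maternal genome were low in hybrid ovaries. Of 9 chorion genes, which encode the outer eggshell, 7 fell, of 16 genes for the vitelline membrane and other eggshell parts 13 fell, and of 4 yolk genes all fell. None rose. Of all tested genes 10.3% fell and 2.99% rose. Median log2 fold changes were -2.21 for chorion, -1.68 for vitelline membrane and -2.10 for yolk, where the median of all tested genes was 0.00. Yp2, a yolk protein, had 576 and 467 CPM in hybrids, against 3365 and 2392 CPM in D. melanogaster (log2 fold change -2.46 ± 0.27 SE, adjusted p-value 0.0018 in edgeR). Vm26Aa, a major protein of the vitelline membrane, had 579.8 and 394 CPM in hybrids, against 1908 and 1661 CPM in D. melanogaster (-1.87, SE 0.25, adjusted p-value 0.0039). For both genes the groups lay farther apart than the libraries within each group.

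Chorion genes varied more. Cp36 had 213 and 592 CPM in hybrids, against 2734 and 1186 CPM in D. melanogaster (-2.28, SE 0.54, edgeR adjusted p-value 0.026), and Cp7Fa had 1.98 and 28.1 CPM in hybrids, against 202 and 78.1 CPM in D. melanogaster (-3.21, SE 0.88, adjusted p-value 0.04). Without hybrid replicate 2 Cp36 and Cp7Fa were at -3.20 and -6.14, without D. melanogaster replicate 1 at -1.56 and -2.36, and Cp7Fa was at -2.32 without hybrid replicate 1. For every chorion gene hybrids were below both D. melanogaster libraries, where 37.2% of all tested genes were. This held also for Cp16 and Cp18, which were not called (log2 fold changes -1.50 and -1.45). The list took 0.112% and 0.287% of the D. melanogaster counts in hybrids, against 1.02% and 0.506% in D. melanogaster, so it differed within each group as well. DESeq2 called 5 of the 9, and all 9 passed without hybrid replicate 2 or without D. melanogaster replicate 2. yl, the oocyte receptor that takes up yolk proteins, had 1499 and 1596 CPM in hybrids, against 4021 and 2426 CPM in D. melanogaster (-1.06, SE 0.29, adjusted p-value 0.04). Its call was lost without hybrid replicate 1, hybrid replicate 2 or D. melanogaster replicate 1, at -1.01, -1.10 and -0.65.

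Several eggshell genes sit side by side in the genome, and these runs fell together. The longest run of neighbouring lower genes lies on 2L between 5956489 and 5967752 of the Release 6 assembly. It holds CG13998, the vitelline membrane genes Vm26Ab, Vm26Ac and Vm26Aa, the eggshell gene psd, and CG13992. CG13998 was at the floor in hybrids and at least 3.79-fold lower, and the others had log2 fold changes between -2.78 and -1.33. The next, on X between 8470888 and 8483311, is the chorion cluster Cp7Fa, Cp7Fb, Cp7Fc, Cp36 and Cp38, between -3.21 and -1.86. The call of Cp38 was lost without hybrid replicate 1 (-1.62). Another run on 3R, between 21770333 and 21782536, holds GABA-B-R2, CG6800, Polr1H and tsl, a gene of the terminal patterning system that follicle cells express. Of these, CG6800 and tsl are at most 3 counts in both hybrid libraries, at least 4.61-fold and at least 4.05-fold lower. Misplaced reads exceeded 5% of the level of tsl. Calls of this run depended on single libraries, with CG6800 and Polr1H lost without hybrid replicate 2 (-2.16 and -1.07) or D. melanogaster replicate 1 (-2.19 and -0.93), and tsl without hybrid replicate 1 (-2.60) or 2 (-2.52). In all, 283 of the 841 lower genes (33.7%) had a lower gene as next tested neighbour, in 30 runs of at least 3, and 38 of the 245 higher genes (15.5%) had a higher one, in 2 runs. No chance level was computed for these shares.

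Follicle cell genes fell in part. Of 20 tested genes of follicle cell identity and patterning 8 fell (40%, against 10.3% of all tested genes) and none rose. Their median log2 fold change was -0.81. tj, the transcription factor that marks somatic gonad cells, had 14.8 and 13.8 CPM in hybrids, against 111 and 100.0 CPM in D. melanogaster (-2.89, SE 0.17, edgeR adjusted p-value 0.00035). Egfr, the receptor through which the oocyte patterns the follicle cells, had 13.1 and 11.7 CPM in hybrids, against 50.3 and 42.8 CPM in D. melanogaster (-1.91, SE 0.19, adjusted p-value 0.0015). Its ligand grk, made in the oocyte, fell by 1.30 on the log2 scale (SE 0.22), its target kek1 fell by 2.77 (SE 0.24, misplaced reads at 5.06%) and the transcription factor eya fell by 1.98 (SE 0.26). Each of these 5 genes kept its call without any single library. upd1, a ligand secreted by the polar cells at the ends of the egg chamber, had 1 and 2 counts in hybrids, against 42 and 17 counts in D. melanogaster, and was at least 5.14-fold lower. Its receptor dome had 228 and 232 CPM in hybrids, against 158 and 209.6 CPM in D. melanogaster, and was not called. The list of 13 genes of the maternal dorsoventral pathway also held tsl of the terminal system. Of this list tsl, wbl and ndl were lower (23.1%, against 10.3% of all tested genes) and none was higher. wbl lost its call without hybrid replicate 2 (-1.44).

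Basement membrane genes moved in both directions. Of 10 tested genes 6 fell and 2 rose, where 10.3% of all tested genes fell and 2.99% rose. The 2 collagen IV subunits fell most: vkg had 33.0 and 39.2 CPM in hybrids, against 288 and 151 CPM in D. melanogaster (log2 fold change -2.61 ± 0.31 SE, adjusted p-value 0.0024 in edgeR), and Col4a1 had 54.9 and 57.4 CPM in hybrids, against 405 and 228 CPM in D. melanogaster (-2.49, SE 0.28, adjusted p-value 0.002). The laminin subunits LanA, LanB2 and LanB1 fell by 2.34, 1.89 and 1.41 on the log2 scale (SE 0.24, 0.21 and 0.20). trol, which encodes perlecan, fell by 1.03 (SE 0.26), a call that was lost without hybrid replicate 1 (-0.92), hybrid replicate 2 (-1.14) or D. melanogaster replicate 1 (-0.61). The 2 genes that rose encode proteins that blood cells also secrete. Pxn, a peroxidase of the matrix, had 63.1 and 65.9 CPM in hybrids, against 21.01 and 11.7 CPM in D. melanogaster (1.97, SE 0.27, adjusted p-value 0.0041), and Ppn, papilin, had 109 and 119 CPM in hybrids, against 55.0 and 21.4 CPM in D. melanogaster (1.57, SE 0.38, adjusted p-value 0.028), or 2.41 without D. melanogaster replicate 1.

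Genes of ecdysone synthesis, the steroid hormone that follicle cells make to drive egg chambers past mid-oogenesis, were low. Of 11 tested members of the list 8 fell (72.7%, against 10.3% of all tested genes) and none rose. Lower were nvd, spo, phtm, dib, sad, sro and shd, and GstE14, which handles sterols. All had low counts, so the requirement of at least 10 counts in every library removed each of these calls. It left 3 members of the list tested, none of them called, with a median of 0.39. Genes this scarce in hybrids can pass the count filter through their counts in D. melanogaster alone. The share of lower members therefore says little about the list as a whole. The log2 fold changes of spo, nvd and phtm were -3.43, -3.20 and -2.59 (SE 0.56, 0.47 and 0.63). phtm had 1.49 and 0.824 CPM in hybrids, against 10.3 and 3.53 CPM in D. melanogaster, and was at -1.61 without D. melanogaster replicate 1 and at -3.18 without replicate 2. spo had 0.868 and 0.353 CPM in hybrids, against 8.49 and 4.68 CPM in D. melanogaster, and was at -4.19 without hybrid replicate 1. shd, which encodes the last step, lost its call without hybrid replicate 2 (-1.90), and misplaced reads exceeded 5% of its level. Cyp18a1, which breaks ecdysone down and lies next to phtm on X, had 6.57 and 4.83 CPM in hybrids, against 59.9 and 37.7 CPM in D. melanogaster (-3.10, SE 0.30, edgeR adjusted p-value 0.0012). Of 14 ecdysone response genes 14.3% were lower, against 10.3% of all tested genes: br and Hr3 (-1.39 and -1.22). Misplaced reads amounted to 12.96% and 11.8% of their levels, and Hr3 lost its call without hybrid replicate 1 (-1.15) or 2 (-1.29).

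**Figure D2:**
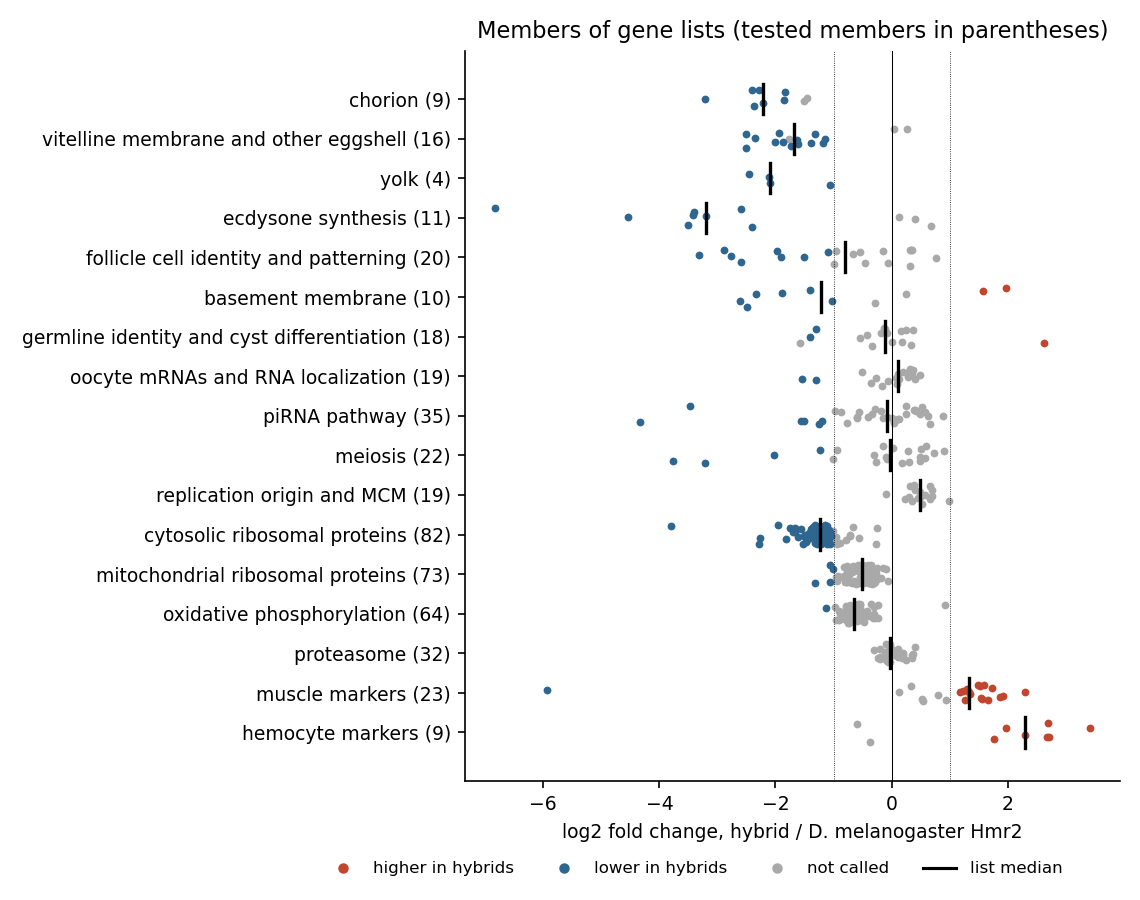
log2 fold change (hybrid over D. melanogaster Hmr2, horizontal) of every tested member of 17 gene lists (rows), with called members coloured, list medians as black bars and dotted lines at 2-fold. Chorion, vitelline membrane, yolk, ecdysone synthesis and cytosolic ribosomal protein lists lie to the left, muscle and hemocyte markers to the right, and germline lists stay around 0 with a few members far to the left; members at the detection floor are drawn at their fitted values.

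Germline genes changed little as a group, with exceptions. The list of germline identity and cyst differentiation had a median log2 fold change of -0.12 over 18 genes, of which pgc and bam fell and bgcn rose. Its lower share (11.1%) was near the 10.3% of all tested genes. bgcn, the partner of bam in starting cyst differentiation, had 22.7 and 15.9 CPM in hybrids, against 3.002 and 3.22 CPM in D. melanogaster (2.63, SE 0.29, edgeR adjusted p-value 0.0019). bam had 11.7 and 15.2 CPM in hybrids, against 28.1 and 38.4 CPM in D. melanogaster (-1.30, SE 0.24, adjusted p-value 0.011). The partners thus moved in opposite directions on the maternal genome. The call of pgc (-1.40) is uncertain because 47.0% of its exonic bases overlap T3dh.

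Of 19 oocyte mRNAs and their localisation factors, only orb and grk were called, both lower. This share (10.5%) was near the 10.3% of all tested genes. orb, a translational regulator of localised mRNAs, had 338 and 336 CPM in hybrids, against 992 and 973 CPM in D. melanogaster (log2 fold change -1.54 ± 0.18 SE, adjusted p-value 0.0022 in edgeR). osk, a localised mRNA of the germ plasm, differed by -0.16 (SE 0.21, adjusted p-value 0.58). Of 18 genes of cell cycle and egg activation png alone was called. It encodes a kinase that acts at egg activation and had 29.6 and 27.7 CPM in hybrids, against 83.2 and 76.1 CPM in D. melanogaster (-1.48, SE 0.16, adjusted p-value 0.0018).

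Among 22 tested meiosis genes 4 fell (18.2%, against 10.3% of all tested genes), and all 4 encode parts of the synaptonemal complex, which holds paired chromosomes together. c(3)G, its transverse filament, had 32.0 and 32.8 CPM in hybrids, against 114.9 and 149 CPM in D. melanogaster (-2.02, SE 0.19, edgeR adjusted p-value 0.0011). corolla, a central region protein, had 0.744 and 1.29 CPM in hybrids, against 13.6 and 14.6 CPM in D. melanogaster (-3.77, SE 0.37, adjusted p-value 0.0013). cona had 1 and 2 counts in hybrids, against 39 and 16 counts in D. melanogaster, and was at least 4.798-fold lower. c(2)M was lower by less (-1.23, SE 0.20), and its call was lost without hybrid replicate 2 (-1.01). The list as a whole had a median of -0.02, and mtrm, an abundant meiotic regulator, had 369 and 372 CPM in hybrids, against 422 and 358 CPM in D. melanogaster.

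Genes of the piRNA pathway, the small RNA defence of ovaries against transposons, had a median log2 fold change of -0.08 over 35 genes. Of these 6 fell (17.1%, against 10.3% of all tested genes): del, rhi, qin, fs(1)Yb, aub and kipf. del and rhi, which with cuff form the complex that licenses transcription of piRNA clusters, had 10.05 and 10.6 CPM and 0.868 and 6.94 CPM in hybrids, against 169 and 249 CPM and 45.8 and 42.0 CPM in D. melanogaster. The log2 fold change of rhi (-3.47) was -2.66 without hybrid replicate 1 and -5.64 without hybrid replicate 2. qin, which acts with aub in the cytoplasm, had 17.1 and 19.4 CPM in hybrids, against 60.9 and 46.3 CPM in D. melanogaster (-1.55, SE 0.20, edgeR adjusted p-value 0.0036). kipf (-1.20), which brings rhi to a set of clusters, lost its call without D. melanogaster replicate 1 (-0.99), and fs(1)Yb (-1.51), a factor of follicle cell piRNA biogenesis, without hybrid replicate 1 (-1.67) or 2 (-1.36).

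p53, the transcription factor of the DNA damage response, fell as well. It had 1.12 and 1.88 CPM in hybrids, against 35.2 and 36.4 CPM in D. melanogaster (log2 fold change -4.56 ± 0.29 SE, adjusted p-value 0.00035 in edgeR), and kept its call without any single library. Of 16 tested genes of apoptosis and DNA damage the cell death gene hid also fell (-1.22), with misplaced reads at 5.37% of its level. The lower share of this list (12.5%) was near the 10.3% of all tested genes. lok, the checkpoint kinase upstream of p53, had 582 and 593 CPM in hybrids, against 518 and 598 CPM in D. melanogaster, and was not called. None of 19 genes of the replication origin and MCM helicase was called, although 18 of them had both hybrid libraries above both D. melanogaster libraries, where 36.6% of all tested genes did. Their median log2 fold change was 0.49, or -0.44 with libraries scaled to both species, and the largest was that of chif, a subunit of the kinase that fires origins (528 and 587 CPM in hybrids, 239 and 322 CPM in D. melanogaster, 0.99, SE 0.20, adjusted p-value 0.016). It stayed under the 2-fold threshold and passed it without D. melanogaster replicate 2 (1.19).

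**Figure D3:**
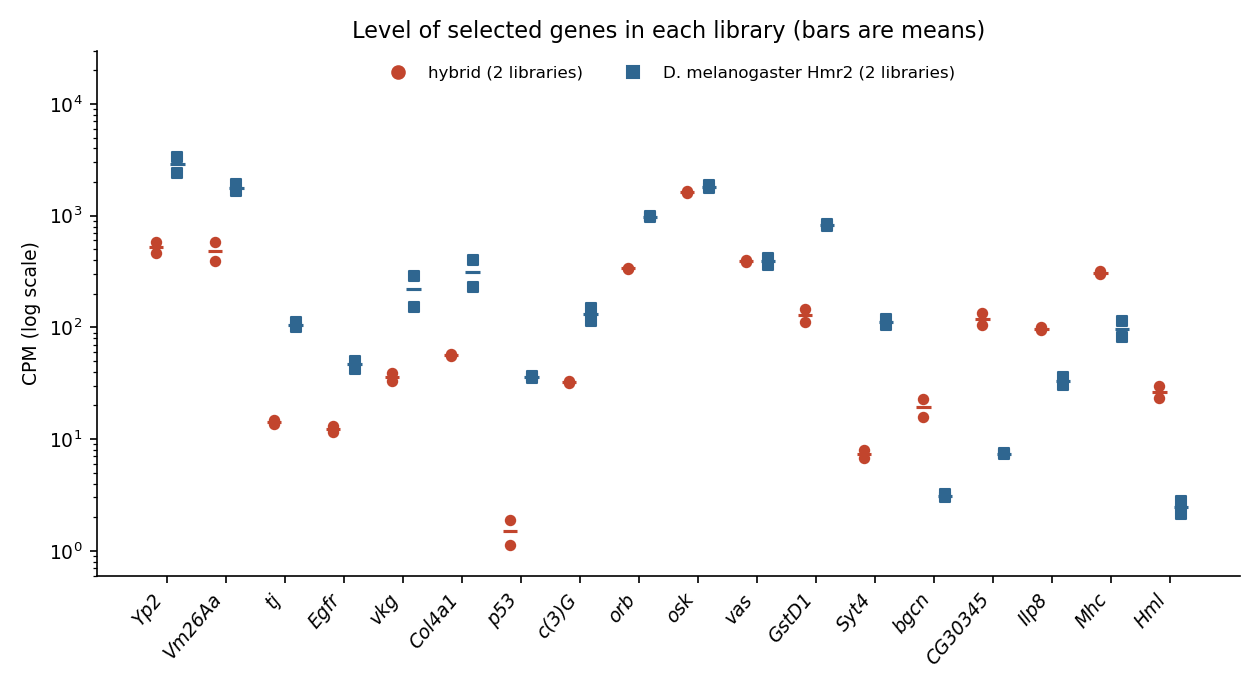
Level of 18 genes in each library, in CPM on a log scale, for 2 hybrid libraries (circles, left of each pair) and 2 D. melanogaster Hmr2 libraries (squares, right), with bars at the means. For osk and vas the groups lie close, for p53, tj and Syt4 hybrids lie far below, and for CG30345, bgcn and Hml far above D. melanogaster.

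Cytosolic ribosomal protein genes made up the largest group of lower genes. Of 82 tested 70 fell (85.4%, against 10.3% of all tested genes) and none rose, with a median log2 fold change of -1.23. For 80 of the 82 both hybrid libraries lay below both D. melanogaster libraries, where 37.2% of all tested genes did. RpLP0, of the ribosomal stalk, had 834 and 923 CPM in hybrids, against 4225 and 2574 CPM in D. melanogaster (-1.95, SE 0.30, edgeR adjusted p-value 0.0059). RpL30 had 129 and 124 CPM in hybrids, against 773 and 461 CPM in D. melanogaster (-2.28, SE 0.26, adjusted p-value 0.0022). RpS19b, a paralogue that the germline expresses, had 1 count in each hybrid library, against 29 and 26 counts in D. melanogaster, and was at least 5.06-fold lower. RpL41 was not called, and misplaced reads amounted to 90.6% of its level. Together the 85 genes took 7.26% and 7.02% of the D. melanogaster counts in hybrids, against 17.7% and 11.7% in D. melanogaster, so the share differed within D. melanogaster as well. The number of calls depended on this: 14, 10 and 22 genes were lower without hybrid replicate 1, hybrid replicate 2 and D. melanogaster replicate 1, and 78 without D. melanogaster replicate 2. The median stayed between -1.53 and -0.82 relative to all genes in these 4 fits.

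Other lists of short housekeeping genes shifted less. Of 73 mitochondrial ribosomal protein genes 5.48% were lower (median of the list -0.51), against 10.3% of all tested genes. These were mRpL2, mRpL27, mRpS28 and mRpL36, of which mRpL2 (-1.32, SE 0.21) alone was called in each fit without a library. Without D. melanogaster replicate 1 the values of the other genes were -0.71, -0.86 and -0.91. Of 64 genes of oxidative phosphorylation ND-AGGG alone was called, lower (-1.14, SE 0.19), at a list median of -0.65. It lost its call without hybrid replicate 2 (-0.997) or D. melanogaster replicate 1 (-0.98). In these lists 62 and 60 genes had both hybrid libraries below both D. melanogaster libraries, where 37.2% of all tested genes did. Without D. melanogaster replicate 2 the numbers of lower genes were 13 and 25. Of 32 proteasome genes none was called, and their median was -0.03.

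Fold changes moved with the length of the gene. With tested genes in 5 groups of like size by exonic length, the median log2 fold change was -0.37 in the shortest group (193 to 1194 bases) and 0.26 in the longest (4260 to 71820 bases), each relative to all genes, with -0.10, 0.06 and 0.18 between. In the shortest group 1.52% of genes were higher and 13.3% lower, and in the longest 6.03% and 8.65%. Without the ribosomal protein genes the shortest group had a median of -0.35 and 10.6% lower genes. The median exonic length was 909.5 bases for cytosolic ribosomal protein genes, 783 for mitochondrial ones, 879.5 for oxidative phosphorylation, 1398.5 for the proteasome, 1116 for chorion and 2812 for muscle markers. The part of length in the values of these lists was not tested.

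**Figure D4:**
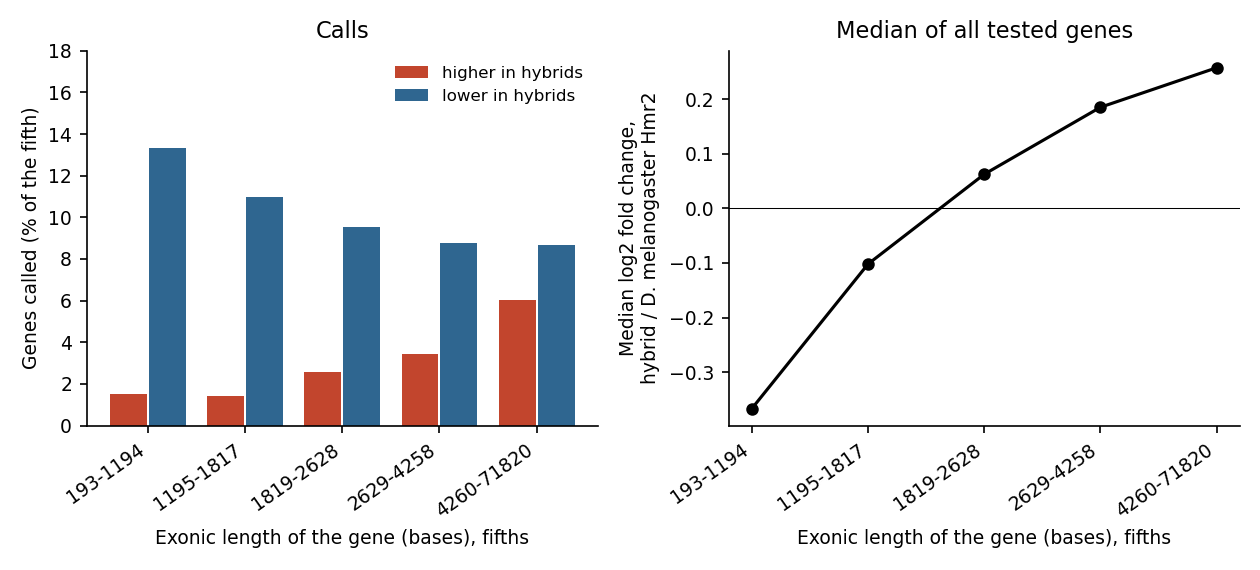
Tested D. melanogaster genes in 5 groups by exonic length in bases (horizontal, shortest left): the left panel shows the percentage of genes higher (left bars) and lower (right bars) in hybrids, the right panel the median log2 fold change, hybrid over D. melanogaster Hmr2. The median climbs with length, at -0.37 in the shortest and 0.26 in the longest.

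Markers of muscle and blood cells were higher in hybrid libraries. Of 23 tested muscle markers 16 rose, against 2.99% of all genes, and TpnC4 fell. Mhc, the muscle myosin heavy chain, had 298 and 322 CPM in hybrids, against 114 and 81.3 CPM in D. melanogaster (log2 fold change 1.67 ± 0.20 SE, adjusted p-value 0.0026 in edgeR). Act57B, a muscle actin, had 504 and 417 CPM in hybrids, against 190.3 and 125 CPM in D. melanogaster (1.55, SE 0.24, adjusted p-value 0.0061). TpnC4, a troponin C of flight muscle, had 0 and 1 counts in hybrids, against 83 and 50 counts in D. melanogaster, and was at least 11.9-fold lower. The largest increase was that of Mlc2 (2.29), whose level in D. simulans libraries was 21.3% of that in hybrids. With the expected misplaced reads subtracted it was at 2.15. With genes over 5% of misplaced reads left out 10 muscle markers stayed higher, and without D. melanogaster replicate 2 the count was also 10. Scaled to both species, 2 muscle markers and 6 hemocyte markers were higher, with list medians of 0.41 and 1.39. The actins Act79B and Act88F, the troponin TpnC41C and the flight muscle protein fln had too few counts to be tested, at most 5.72 estimated counts in any library. The list summed to 2949 and 2767 CPM in hybrids, against 1356 and 1051 CPM in D. melanogaster.

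Of 9 tested hemocyte markers 7 rose, where 2.99% of all tested genes did: Hml, NimC1, Sr-CI, eater, PPO1, Pxn and PPO2. Hml, a clotting protein of plasmatocytes, had 23.6 and 29.7 CPM in hybrids, against 2.77 and 2.15 CPM in D. melanogaster (3.42, SE 0.27, edgeR adjusted p-value 0.00073). PPO1, a prophenoloxidase of crystal cells, had 7.69 and 7.06 CPM in hybrids, against 1.73 and 1.23 CPM in D. melanogaster (2.30, SE 0.37, adjusted p-value 0.0071). PPO2 lost its call without hybrid replicate 1 (1.53), and He had no count in any of the 4 libraries. The most abundant marker, crq, which other cells also express, had 179 and 158 CPM in hybrids, against 247 and 264 CPM in D. melanogaster, and it kept the sum of the list at 334 and 328 CPM in hybrids, against 356 and 330 CPM in D. melanogaster. The part that such tissue had in the changes of other genes was not tested.

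Markers of other tissues were few. No gut marker of 13 had enough counts to be tested, and the list summed to 1.36 and 3.77 CPM in hybrids, against 0.981 and 2.07 CPM in D. melanogaster. The 9 fat body markers summed to 346 and 313 CPM in hybrids, against 617 and 459 CPM in D. melanogaster, with Adh, which overlaps Adhr, the most abundant. Of 6 tested neuronal genes Syt4, Appl and Syt1 were lower and nrv3 was higher, where 10.3% of all tested genes were lower and 2.99% higher. Syt4, a synaptotagmin, had 6.82 and 8.003 CPM in hybrids, against 105 and 118 CPM in D. melanogaster, and nrv3, a pump subunit of neurons, had 10.4 and 7.77 CPM in hybrids, against 0.866 and 0.307 CPM in D. melanogaster. Appl lost its call without hybrid replicate 2 (-1.08), and Syt1 without hybrid replicate 2 (-0.92) or D. melanogaster replicate 1 (-0.76). The level of Syt1 in D. simulans libraries was 24.4% of that in D. melanogaster. With the expected misplaced reads subtracted from hybrids Syt1 was at -2.10. Of 5 tested genes of the oviduct and sperm storage organs the octopamine receptors Oamb and Octbeta2R were higher, with misplaced reads at 13.1% of the level of Octbeta2R. Send1, with no count in hybrids and 40 and 18 counts in D. melanogaster, was at least 5.09-fold lower. None of 12 tested testis markers and none of 13 genes of ring canals and nurse cell actin was called. Of 25 immune effectors 7 had enough counts to be tested. The antimicrobial peptide genes AttA and Dro and the recognition gene PGRP-LB were lower (42.9%, against 10.3% of all tested genes). AttA had 1 and 2 counts in hybrids, against 39 and 34 counts in D. melanogaster, and was at least 6.70-fold lower. It passed the count filter through its counts in D. melanogaster, so its direction says little about the list. PGRP-LB lost its call without hybrid replicate 1 (-1.63) or 2 (-2.20).

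**Figure D5:**
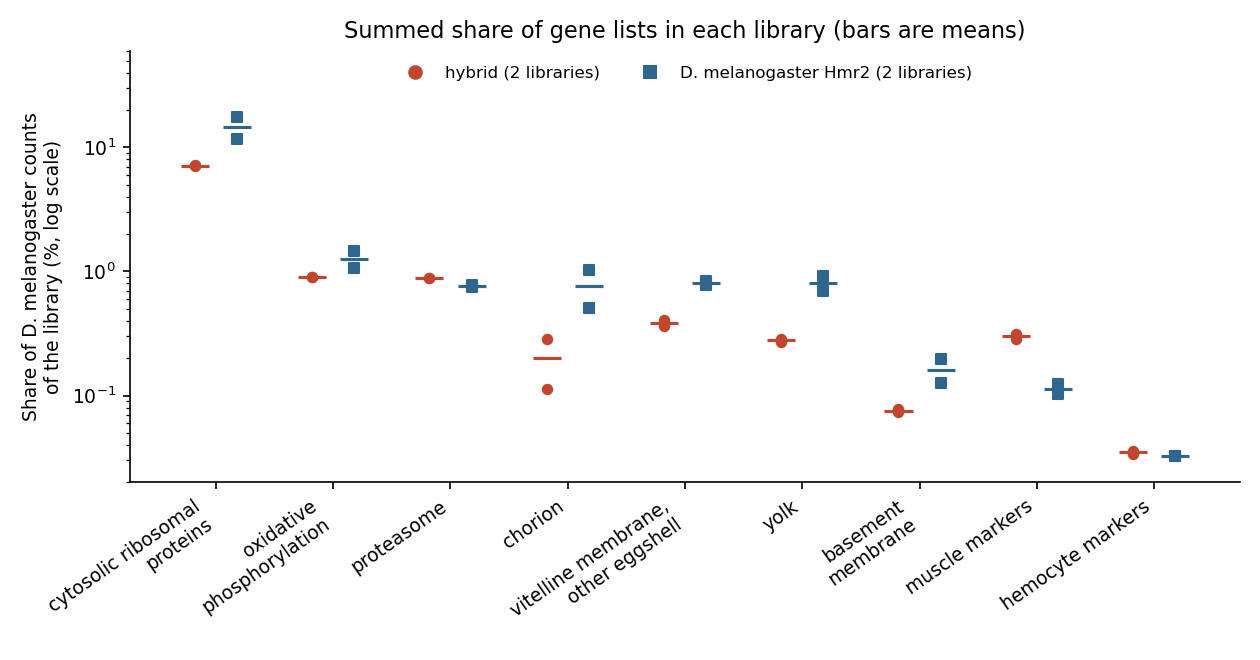
Summed share of 9 gene lists in the D. melanogaster counts of each library, in percent on a log scale, for 2 hybrid libraries (circles, left of each pair) and 2 D. melanogaster Hmr2 libraries (squares, right), with bars at the means. Ribosomal protein genes take 7.26% and 7.02% in hybrids, against 17.7% and 11.7% in D. melanogaster, while muscle markers lie higher in hybrids and hemocyte markers, dominated by crq, hardly differ.

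Of 21 tested glutathione S-transferases, enzymes of detoxification, 7 fell and 2 rose, where 10.3% of all tested genes were lower and 2.99% higher. GstD1, the most abundant, had 112 and 146 CPM in hybrids, against 844 and 812 CPM in D. melanogaster (log2 fold change -2.68 ± 0.21 SE, adjusted p-value 0.00061 in edgeR). GstZ1 and GstD3 fell by 3.04 and 2.70 on the log2 scale (SE 0.32 and 0.29). GstT4 had 37.7 and 41.7 CPM in hybrids, against 5.83 and 16.04 CPM in D. melanogaster (1.88, SE 0.41), and its log2 fold change was 1.30 without D. melanogaster replicate 1 and 2.74 without replicate 2. The increase of GstD9 (1.57) turned into a decrease of 10.02 on the log2 scale once the reads expected from D. simulans alleles were subtracted, since its level in D. simulans libraries was 608% of that in hybrids. Of 33 tested cytochrome P450 genes Cyp313b1, Cyp4g15 and Cyp6d4 rose (1.91, 1.70 and 1.31) and Cyp18a1, Cyp4s3 and Cyp6a13 fell. The lower share (9.09%) was near the 10.3% of all tested genes, and the higher share (9.09%) lay above their 2.99%. Cyp4g15 was at 2.63 without D. melanogaster replicate 1. Cyp313b1, Cyp4g15, Cyp6d4 and Cyp4s3 lost their calls without hybrid replicate 2 (1.82, 1.504, 1.44 and -1.81), Cyp313b1 and Cyp6d4 also without hybrid replicate 1 (2.01 and 1.16), and Cyp6d4 without D. melanogaster replicate 1 (1.15). Of 16 tested heat shock proteins the abundant chaperone Hsc70-4 alone was called, with 3764 and 3777 CPM in hybrids, against 9123 and 7079 CPM in D. melanogaster (-1.10, SE 0.28). Its call was lost without hybrid replicate 1 (-1.10), hybrid replicate 2 (-1.11) or D. melanogaster replicate 1 (-0.91).

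The 12 largest increases among genes at or above the median level, with at most 5% misplaced reads, were those of CG30345, sls, bt, Mhc, Ppn, Ilp8, Act57B, up, Alp4, CG44085, Prm and PlexB. CG30345 stood apart, with 134 and 105 CPM in hybrids, against 7.50 and 7.29 CPM in D. melanogaster (log2 fold change 4.01). sls, bt, Mhc, Act57B, up and Prm are muscle genes. Ilp8, a relaxin-like peptide that follicle cells make and that is known in larvae to delay metamorphosis, had 94.5 and 100.0 CPM in hybrids, against 30.5 and 36.1 CPM in D. melanogaster (1.55, SE 0.17, edgeR adjusted p-value 0.0017). PlexB, a receptor of semaphorins, had 341 CPM in both hybrid libraries, against 133 and 150.3 CPM in D. melanogaster (1.27, SE 0.16, adjusted p-value 0.0033). Alp4, an alkaline phosphatase, had 210.3 and 182 CPM in hybrids, against 69.6 and 66.6 CPM in D. melanogaster (1.53, SE 0.16, adjusted p-value 0.0017). All 12 kept their calls without any single library.

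Some genes were at the detection floor in D. melanogaster, with at most 3 counts in both libraries, and appeared in hybrids. Doc1, a T-box transcription factor known from the embryonic heart, had 161 and 132 counts in hybrids, against 3 and 2 counts in D. melanogaster, and was at least 88.0-fold higher. B-H1, a homeodomain protein of sense organs, had 41 and 36 counts in hybrids and none in D. melanogaster, at least 23.1-fold higher. CG8519 and nolo were at least 6.30-fold and 5.41-fold higher. The histone gene His2B:CG17949 had 34 and 510 counts in hybrids, against 0 and 2 counts in D. melanogaster, at least 159-fold higher. Its copies are nearly identical, so reads can be divided among them differently in each library, and its hybrid libraries differ widely. No D. simulans library had reads on Doc1 or B-H1. Misplaced reads from a D. simulans allele active only in hybrids could not be seen in this way.

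The 12 largest decreases among genes at or above the median level, with at most 5% misplaced reads, were those of yin, del, Syt4, CG31262, beta-Man, Cp7Fa, tj, CG5568, kar, GstD1, CG8303 and vkg. yin, a peptide transporter, had 8.56 and 10.6 CPM in hybrids, against 190.5 and 241 CPM in D. melanogaster (log2 fold change -4.49 ± 0.22 SE, adjusted p-value 0.00025 in edgeR). CG31262 had 9.80 and 5.77 CPM in hybrids, against 101 and 98.7 CPM in D. melanogaster (-3.69, SE 0.25, adjusted p-value 0.00041). beta-Man, a lysosomal mannosidase, had 11.8 and 12.8 CPM in hybrids, against 132 and 114 CPM in D. melanogaster (-3.32, SE 0.18, adjusted p-value 0.00035). All 12 kept their calls without any single library.

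Genes that fell to at most 3 counts in both hybrid libraries numbered 58. Those most abundant in D. melanogaster were Oxp, CG13375, CG34031, CG43074, daw and Ir41a, at least 38.4-fold, 31.9-fold, 29.7-fold, 23.6-fold, 21.9-fold and 20.1-fold lower. Oxp, a paralogue of a heterochromatin protein, lies beside rhi on 2R, within the span of CG10936, which had 10 and 17 counts in hybrids, against 391 and 174 counts in D. melanogaster. daw, an activin-like ligand, had 3 and 2 counts in hybrids, against 216 and 44 counts in D. melanogaster, so its level differed between the D. melanogaster libraries as well. CG34031 had 0 and 1 counts in hybrids, against 210 and 123 counts in D. melanogaster, whereas Ir41a, an ionotropic receptor, had 2 and 3 counts in hybrids, against 121 and 99 counts in D. melanogaster. Between the fits without D. melanogaster replicate 1 and without replicate 2, daw moved most among these genes (log2 fold changes -3.43 and -5.35).

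Changed genes were spread over all chromosome arms at like rates. Higher genes were 2.84% of 1410 tested genes on X, 3.24% of 1541 on 2L, 3.09% of 1653 on 2R, 2.82% of 1558 on 3L, 2.94% of 1974 on 3R and 3.08% of 65 on 4. Lower genes were 11.1% on X, 10.4% on 2L, 10.9% on 2R, 10.4% on 3L, 8.87% on 3R and 10.8% on 4. The X chromosome, which carries the inversions and the Hmr2 allele, had shares near the 2.99% and 10.3% of all genes. Both runs of neighbouring higher genes were short: eIF4E4, SP1173 and CG8519 on 3L between 6664224 and 6709000, and the glutamate receptor genes GluRIIE and GluRIID with Oamb on 3R between 20644154 and 20714577. Misplaced reads amounted to 48.6% of the level of eIF4E4 and 8.22% of that of SP1173. Apart from CG8519, each of these genes lost its call without some library. eIF4E4 was lost without hybrid replicate 2 (1.89), SP1173 without D. melanogaster replicate 2 (0.86), GluRIID without hybrid replicate 1 (1.58), GluRIIE without hybrid replicate 1 (1.33) or 2 (1.32), and Oamb without hybrid replicate 2 (1.09) or D. melanogaster replicate 2 (1.00).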

How the data were processed

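Polyadenylated ovarian RNA was sequenced with a directional kit. The deposited estimated counts were made by the authors with kallisto 0.50.0, run in single-end mode without a stated strand option on the merged RefSeq transcripts of both species, and protein-coding transcripts were summed to genes without rescaling. The deposited TPM values, computed by the authors over all transcripts, were used only to identify columns. For D. melanogaster replicate 2 the column of estimated counts bears a TPM name, and it was identified from its values, which are proportional to the TPM of that library times a length. A further 6 columns without a sample name were not used here. Misassigned reads, and reads shared by overlapping genes on opposite strands, can raise or lower single genes.

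Symbols and positions came from RefSeq (Release 6 assembly), where each of the 13973 identifiers was found, and exons from Ensembl for that assembly. Estimated counts were rounded and compared in R 4.3.3 with the two-sided quasi-likelihood test of edgeR 4.0.16, after filterByExpr with a minimum count of 10 and TMM scaling within D. melanogaster genes, in a single fit of the 4 libraries. Called genes have a Benjamini-Hochberg adjusted p-value below 0.05 over all tested genes and a log2 fold change of 1 or more in size. The SE of a log2 fold change was derived from it and from the quasi-F statistic, by dividing its size by the root of that statistic. A group with at most 3 counts in both libraries is at the detection floor, and its fold is a lower bound against a group mean of 3 counts in each library. Misplaced reads are the CPM of a gene in D. simulans libraries, in percent of the higher of its 2 group means. Floors reflect counting error alone, as no molecular identifiers were used. Python 3.11.15 was used for the summaries.

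Totals over both species were 16810398 and 17101727 estimated counts in hybrids and 19443493 and 13625547 in D. melanogaster. The replicates are separate libraries, and p-values measure only the spread between them. Chi-square per degree of freedom between replicates was 6.13 for hybrids and 87.7 for D. melanogaster, the median absolute log2 difference was 0.12 and 0.31, and the biological coefficient of variation of the fit was 16.2%. Tested on simulated counts of 8083 genes in this comparison, 200 with a simulated log2 change of 2, the step recovered 94% of the changed genes, and false calls made up 4.57%. The simulation gave both groups the same spread and equal numbers of increases and decreases. These libraries differ from that, so the 2 percentages need not hold for them. Replicate numbers name samples and are not known to pair them: same-numbered libraries did not deviate together (correlation -0.000165).

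The 33 gene lists, the comparison and the naming rule were chosen with earlier results of these data known. By rule were named the 12 largest changes per direction among genes that were called, had no overlap between the groups, lay at or above the median level and had at most 5% misplaced reads. The rule further took the 6 most abundant called genes per direction with the other group at the floor, the largest called changes and the most abundant member of each list, genes the study singles out, and members of the 3 longest runs of called neighbours per direction. Of the named genes, 116 follow the rule and another 92 were chosen after their values were seen. A total of 14 alternatives were run. A planned search of promoter motifs was not run.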

Additional observations from a re-analysis of the deposited data

How the results depend on the processing

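Higher and lower genes numbered 245 and 841 with all libraries. Fits that left out a single library gave 173 to 508 higher and 578 to 1174 lower genes. Scaling libraries to their totals over both species gave 79 higher and 3604 lower genes, the test against a 1.5-fold change gave 122 and 518, and without a minimum fold change 558 genes were higher. The other alternatives stayed within 1.5 times of both numbers. DESeq2 gave 220 and 796, of which 207 and 770 were also called by edgeR. The replicate number as a block gave 298 higher and 901 lower genes, of which 244 and 829 were also called without it. The number is not known to pair the samples, and the block added a call for chif, Drs, Hmr, Cp16 and Cp18 and removed that of trol among named genes.

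The scaling to totals of both species moves all genes by about the -0.92 of the median, since D. melanogaster genes hold less than all of a hybrid library. By this shift the log2 fold changes of genes near 0 turned to -0.52 for mld, -0.18 for usp, -0.61 for dome, -0.32 for cact, -0.80 for tral, -0.49 for tud, -0.67 for CycB, -0.85 for lok, -0.34 for Nup98-96, -0.40 for Tm1, -0.19 for twe, -0.91 for vas, -0.51 for Rpn2 and -0.83 for Cyp6a19. vas, at 0.01 with all libraries, was at -0.022 without a filter on low counts and at -0.0046 with at least 10 counts in every library, and from -0.091 to 0.085 over the fits without a single library. Over those fits mtrm ranged from -0.22 to 0.047, lok from -0.028 to 0.15, tsr from -0.48 to 0.025, RpL41 from -0.53 to 0.013 and tral from -0.0060 to 0.20, and none of these genes was called in any of them. Subtracting the reads expected from D. simulans alleles put GstD9 at -10.02. In all, 2611 of 2847 values of named genes kept their direction and their side of the thresholds, 170 lost their call, 42 gained a call and 24 changed direction. Of 176 named genes called with all libraries, 130 kept their call in each fit without a library.

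With 2 libraries per group, the counts of calls rest on every library, and an outlying library could not be tested for. The D. melanogaster libraries differed more than the hybrid ones. Genes at the detection floor have bounds only. With genes over 5% of misplaced reads left out, 170 genes were higher and 796 lower, and with the expected misplaced reads subtracted 221 and 850. Length and markers of muscle and blood cells moved with some results, and their part was not tested. Hybrid ovaries were selected by their development, so stage composition and the hybrid genotype cannot be told apart. The planned motif search was not run because no promoter sequences were used here.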

Other observations

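Groups of genes picked by name after their values were seen held further lower genes, beside the 2.99% of all tested genes that were higher and the 10.3% that were lower. These groups are described by their counts and get no test of their own. Of the 8 core proteins of small nucleolar ribonucleoproteins, which modify ribosomal RNA, 5 fell (Nop10, Fib, Gar1, NHP2 and hoip, median log2 fold change of the 8 -1.24). All 8 had both hybrid libraries below both D. melanogaster libraries, where 37.2% of all tested genes did. Fib, the methyltransferase of the nucleolus, had 125 and 92.4 CPM in hybrids, against 489.6 and 308 CPM in D. melanogaster (-1.87, SE 0.27, edgeR adjusted p-value 0.0047). Of 7 RNA polymerase I subunits Polr1D, Polr1C and Polr1H were lower (median -0.95). Of 13 RNA polymerase II subunits Polr2H alone was lower (median -0.16), and of 10 RNA polymerase III subunits 2 were (median -0.42). Of 5 tested subunits of ribonuclease P and MRP Rpp30, Rpp21 and Rpp25 were lower (median -1.35), and of 10 exosome subunits Rrp42, Rrp46, Rrp4 and Csl4 (median -0.83). Without D. melanogaster replicate 1, NHP2 (-0.83), hoip (-0.86), Polr1C (-0.89), Polr1H (-0.93), Polr2H (-0.80) and Csl4 (-0.89) lost their calls. Some calls were also lost without hybrid replicate 1 (Polr2H -1.03 and Rpp21 -1.39) or hybrid replicate 2 (hoip -1.17, Csl4 -1.08 and Polr1H -1.07). Some other groups picked by name were mixed. Lower and higher genes numbered 2 and 2 of 44 tested initiation and elongation factors. They numbered 2 and 1 of 6 tested innexins, and 2 and 3 of 84 tested replication-dependent histone genes. Many of these histone genes are copies with the same estimated counts in every library and are not separate observations. Among them are His2B:CG33910 and His2B:CG33902, both higher.

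Purine and one-carbon metabolism, which supplies nucleotides and methyl groups, had 7 lower and no higher genes among 13 tested (median -1.07). Gart, an enzyme of purine synthesis, had 67.3 and 63.6 CPM in hybrids, against 251 and 176 CPM in D. melanogaster (-1.70, SE 0.21, edgeR adjusted p-value 0.0026). Nmdmc, a mitochondrial folate enzyme, had 6.32 and 9.06 CPM in hybrids, against 46.4 and 27.0 CPM in D. melanogaster (-2.25, SE 0.32, adjusted p-value 0.0049). Paics, Shmt and Bhmt were lower as well, and so were Sam-S and Ahcy, whose calls depended on single libraries. Sam-S was lost without hybrid replicate 2 (-1.25), and Ahcy without hybrid replicate 1 (-1.04), hybrid replicate 2 (-1.09) or D. melanogaster replicate 1 (-0.68).

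Collagen hydroxylases, which modify collagen before it is secreted, fell beside the collagen IV genes. The 3 tested of 9, Plod, PH4alphaPV and PH4alphaEFB, were all lower. Plod had 46.1 and 44.1 CPM in hybrids, against 239 and 170.0 CPM in D. melanogaster (-2.18, SE 0.21, edgeR adjusted p-value 0.0012). Of the E(spl) complex, targets of Notch signalling, 2 of 11 genes were tested, and both were lower. Both passed the count filter through their counts in D. melanogaster, so their direction says little about the complex. E(spl)m3-HLH had 4 and 2 counts in hybrids, against 146 and 80 counts in D. melanogaster, and E(spl)mbeta-HLH had 11 and 1 counts in hybrids, against 174 and 79 counts in D. melanogaster.

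Some receptors of the muscle synapse and of octopamine were higher. Of 4 tested glutamate receptor subunits GluRIIA, GluRIID and GluRIIE rose (1.76, 1.67 and 1.32). Of 5 tested octopamine and tyramine receptors TyrRII, Octbeta2R, Octalpha2R and Oamb rose (2.69, 1.74, 1.52 and 1.14), with misplaced reads at 13.1% of the level of Octbeta2R. GluRIIA, TyrRII and Octalpha2R passed the count filter, which scales with depth, through their counts in hybrids. The direction of these genes therefore says little about the groups. GluRIIA lost its call without hybrid replicate 1 (1.63) or 2 (1.89), and Octalpha2R without hybrid replicate 1 (1.69), hybrid replicate 2 (1.31) or D. melanogaster replicate 1 (1.43). TyrRII had 15 and 17 counts in hybrids, against 8 and 1 counts in D. melanogaster, and was at 4.44 without D. melanogaster replicate 1. Muscle markers rose in the same libraries, to a sum of 2949 and 2767 CPM in hybrids, against 1356 and 1051 CPM in D. melanogaster, and their part in these values was not tested.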
